A study of Mus musculus with 18 samples.

Results

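The genes described here are 38 type I interferon-stimulated antiviral genes, measured in neutrophils from mouse lung. They were chosen by name, as the lines of the gene count table whose gene name was on the list, and each name matched 1 of the 40481 gene IDs. All 38 had enough reads to be tested, among 16575 genes in all. Lung cells were sorted as live, CD45+, CD11b+ and Ly6G+, and a second gate split them by CD101, a surface protein of mature neutrophils. Wild-type (WT) mice were set against mice labelled CGD/CYBB KO, in which Cybb is disrupted. Cybb encodes the part of the phagocyte NADPH oxidase that makes superoxide, and people without it have chronic granulomatous disease (CGD). All mice were C57BL/6. The groups were WT naive CD101pos, CGD naive CD101pos, WT zymosan CD101pos, CGD zymosan CD101pos, WT zymosan CD101neg and CGD zymosan CD101neg, with 3 libraries each and 18 in all. Zymosan, a yeast cell wall preparation, was instilled into the nose (20 µg) and lungs were taken 24 hours later. The zymosan mice were female and 13 weeks old and the naive mice male and 12 weeks old, so zymosan, sex and age cannot be told apart. No source used here says that the 3 libraries of a group come from separate animals. The p-values then reflect only how far these libraries differ, which may be technical. The library numbers 1 to 3 come from the sample titles.

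Type I interferons are secreted when cells sense foreign or misplaced nucleic acid. They bind the receptor chains encoded by Ifnar1 and Ifnar2, and the kinases Jak1 and Tyk2 then activate transcription factors, among them Stat2, which joins Irf9 and acts at a DNA element called the interferon-stimulated response element (ISRE). The target genes block viral translation, replication and budding, sense viral RNA and DNA, and raise or dampen the response itself. Several of them also answer to interferon gamma, which acts through another element (GAS), so the list is not specific for type I interferon. In neutrophils such genes are known to vary between cells and to rise in infection and autoimmune disease.

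Library totals ran from 33.7 to 67.9 M reads in genes, and replicates of a group correlated at 0.958 to 0.981 across genes. Cybb reads in CGD libraries stood at 17.1%, 18.9% and 21.3% of the WT level in zymosan CD101neg, zymosan CD101pos and naive cells. All 18 libraries matched the labelled sex. After zymosan, Cd101 measured 322 to 451 CPM in WT CD101pos and 156 to 185 CPM in WT CD101neg libraries. In CGD it measured 95.9 to 112 CPM in CD101pos and 47.3 to 82 CPM in CD101neg libraries. Cd101 RNA thus followed the sort within a genotype, but the CGD CD101pos libraries lay below the WT CD101neg ones. Levels are in CPM (a gene's reads per M of the library, scaled with TMM factors), and in lists of 3 the libraries stand in the order 1, 2, 3. A gene was called changed where edgeR's quasi-likelihood test gave a Benjamini-Hochberg adjusted p under 0.05 over all 16575 genes. These are bulk samples, in which more cells expressing a gene and more RNA per cell cannot be told apart.

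The start regions of 5 members are shown because they carry the element that defines the pathway, and because Oas1a and Oas1g lead the naive comparison and are near copies of each other. Each run holds the 150 bases before the transcription start, 5′ to 3′ on the gene's own strand, from RefSeq on build GRCm38.p6. Capitals mark matches to the ISRE core GAAANNGAAA on either strand, and overlapping matches run together.
Isg15, chr4:156200819-156200968, minus strand: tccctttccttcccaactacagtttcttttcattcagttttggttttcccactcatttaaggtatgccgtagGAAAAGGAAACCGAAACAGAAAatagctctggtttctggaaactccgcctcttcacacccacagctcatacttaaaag
Ifit1, chr19:34640739-34640888, plus strand: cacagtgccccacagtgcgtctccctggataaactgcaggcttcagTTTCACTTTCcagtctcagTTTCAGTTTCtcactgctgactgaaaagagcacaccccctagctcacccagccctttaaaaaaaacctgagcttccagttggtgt
Rsad2, chr12:26456453-26456602, minus strand: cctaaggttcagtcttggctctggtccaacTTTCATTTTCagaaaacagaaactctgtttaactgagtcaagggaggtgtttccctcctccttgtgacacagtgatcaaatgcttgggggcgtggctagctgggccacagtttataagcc
Oas1a, chr5:120907526-120907675, minus strand: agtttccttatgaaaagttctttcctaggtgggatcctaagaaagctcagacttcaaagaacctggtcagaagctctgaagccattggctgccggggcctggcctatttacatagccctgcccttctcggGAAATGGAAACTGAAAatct
Oas1g, chr5:120887614-120887763, minus strand: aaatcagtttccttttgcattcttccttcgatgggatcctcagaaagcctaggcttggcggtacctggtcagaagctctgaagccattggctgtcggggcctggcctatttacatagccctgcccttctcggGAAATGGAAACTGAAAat
Isg15 held 3 overlapping matches, which began 78, 72 and 66 bases before its start. Ifit1 held 2 separate matches on the opposite strand and Rsad2 held 1. Oas1a and Oas1g each held 2 overlapping matches within 20 bases of the start, and their whole 300-base windows were identical at 261 of 306 alignment columns (85.3%). Of the 38 members, 28 matched the RefSeq promoter table, with 33 start sites. In windows from 250 bases before to 50 after a start, the ISRE core lay in 15 of the 28 matched members (53.6%) and in 3.99% of 27025 genes. The GAS core TTCNNNGAA lay in 7 of the 28 (25%) and in 9.55% of all genes. Of the 14 members called higher in CGD zymosan CD101neg cells 9 were matched and 5 of those held the ISRE core, against 10 of 19 matched among the other 24. Matches are letters in a window and not shown binding sites.

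Per kilobase of exon, the most abundant member over the 6 groups was Ifitm3, a membrane protein that blocks viral entry, at 1338 CPM per kilobase. Isg15, a ubiquitin-like modifier, followed at 294, Rtp4, an interferon-induced chaperone of membrane receptors, at 147 and the exonuclease gene Isg20 at 85.7. At the other end stood the dynamin-like GTPases Mx2 (0.234) and Mx1 (0.136) and the microtubule-associated Ifi44 (0.121). Mx1 had 45 to 167 reads per group of 3 libraries, so its values are coarse.

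Antiviral genes stood higher on average in CGD than in WT CD101neg neutrophils after zymosan, most of all in CGD library 3. Of the 38, 14 rose, 0 fell and 24 did not pass. Of all 16575 tested genes, 6.67% rose and 1034 fell in this comparison. The members' median log2 fold change was 0.97, against -0.08 over all genes, and 37 of 38 fold changes were above 0. All 3 CGD libraries lay above all 3 WT libraries for 12 members, a pattern shown by 14.7% of all genes.

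Of the 16 effectors 7 rose, and Isg15 had the lowest p. It measured 188, 235 and 603 CPM in the CGD CD101neg libraries and 70.9, 125 and 97.0 CPM in the WT ones. All CGD libraries were above all WT libraries, and CGD library 3 stood well above the other CGD libraries. The log2 fold change was 1.81 ± 0.36 (SE, adjusted p = 0.00328). Isg20, which degrades single-stranded RNA, measured 172, 206 and 388 CPM against 62.4, 132 and 86.5 CPM, again without overlap. Its log2 fold change was 1.45 ± 0.31 (adjusted p = 0.00548). Zbp1, a sensor of Z-form nucleic acid that can start necroptosis, measured 87.6, 98.8 and 254 CPM against 20.4, 65.7 and 31.8 CPM (1.90 ± 0.47, adjusted p = 0.0139).

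Ifit1, which binds viral RNA that lacks host cap methylation, measured 82.3, 139 and 478 CPM in CGD and 58.7, 77.2 and 49.8 CPM in WT CD101neg cells. CGD library 1 lay just above the highest WT library, and library 3 several times above it (log2 fold change 1.91 ± 0.54, adjusted p = 0.0270). Its relative Ifit2 measured 8.38, 16.2 and 108 CPM against 9.71, 5.63 and 6.55 CPM, so that CGD library 1 fell within the WT range (2.60 ± 0.80, adjusted p = 0.0411). Rsad2, which encodes viperin, an enzyme that makes a chain-terminating nucleotide, measured 89.6, 205 and 757 CPM against 96.2, 98.7 and 85.9 CPM. Here too CGD library 1 was inside the WT range (1.91 ± 0.60, adjusted p = 0.0458). Mx2 rose from a low level, at 1.18, 0.997 and 3.81 CPM against 0.409, 0.153 and 0.182 CPM (2.98 ± 0.85, adjusted p = 0.0271). The Rsad2 neighbour Cmpk2, a mitochondrial nucleotide kinase, had a log2 fold change of 1.55 ± 0.62 and did not pass (adjusted p = 0.1102), and neither did Ifit3 at 1.60 ± 0.63 (adjusted p = 0.105).

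The oligoadenylate synthetase family, some of whose members make the second messenger that activates RNase L, had 0 of 6 called in CD101neg cells. Oas1g had a log2 fold change of 1.42 ± 0.55 (adjusted p = 0.0967) and Oas2 of 1.04 ± 0.39 (adjusted p = 0.0831). Oas2 measured 40.8, 36.5 and 77.4 CPM in CGD and 19.1, 32.4 and 23.7 CPM in WT cells, without overlap. Oas3 was the 1 member with a fold change below 0, at -0.23 ± 0.47.

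Of the 3 transcription factor genes, Stat2, the partner of Irf9, rose. It measured 37.9, 47.6 and 97.8 CPM in CGD and 25.8, 26.0 and 34.9 CPM in WT CD101neg cells, without overlap (1.08 ± 0.33, adjusted p = 0.0358). Irf7, which drives interferon alpha genes, was at 0.80 ± 0.36 (adjusted p = 0.152), and Irf9 at 0.44 ± 0.29 (adjusted p = 0.337). Of the 4 sensor genes, Ifi204, a DNA sensor of the family of Aim2, and Ifih1, which encodes the RNA sensor MDA5, rose. Ifi204 measured 60.3, 108 and 229.8 CPM against 37.0, 43.0 and 46.2 CPM (1.66 ± 0.38, adjusted p = 0.00752). Ifih1 measured 21.0, 23.5 and 48.7 CPM against 13.5, 17.99 and 16.1 CPM (0.97 ± 0.30, adjusted p = 0.0362). Ddx58, which encodes RIG-I, was at 0.46 ± 0.28 and its relative Dhx58 at 0.87 ± 0.35, and neither passed.

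Among the 9 regulators and other signalling genes, Parp14, Herc6, Xaf1 and Parp9 rose. Parp14, an ADP-ribosyltransferase, measured 37.8, 48.9 and 107 CPM in CGD and 19.1, 19.9 and 22.7 CPM in WT cells (1.65 ± 0.36, adjusted p = 0.00566). Its lowest CGD library was well above its highest WT library. Herc6, the mouse ligase that attaches Isg15 to proteins, was at 1.86 ± 0.51 (adjusted p = 0.0232), the apoptosis-related Xaf1 at 1.51 ± 0.44 (adjusted p = 0.0314) and Parp9 at 0.96 ± 0.31 (adjusted p = 0.0488). Usp18, which removes Isg15 and blocks the receptor, measured 31.1, 64.1 and 186 CPM against 34.0, 54.7 and 38.8 CPM. The groups overlapped and it did not pass (1.14 ± 0.50, adjusted p = 0.1398).

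**Figure D1:**
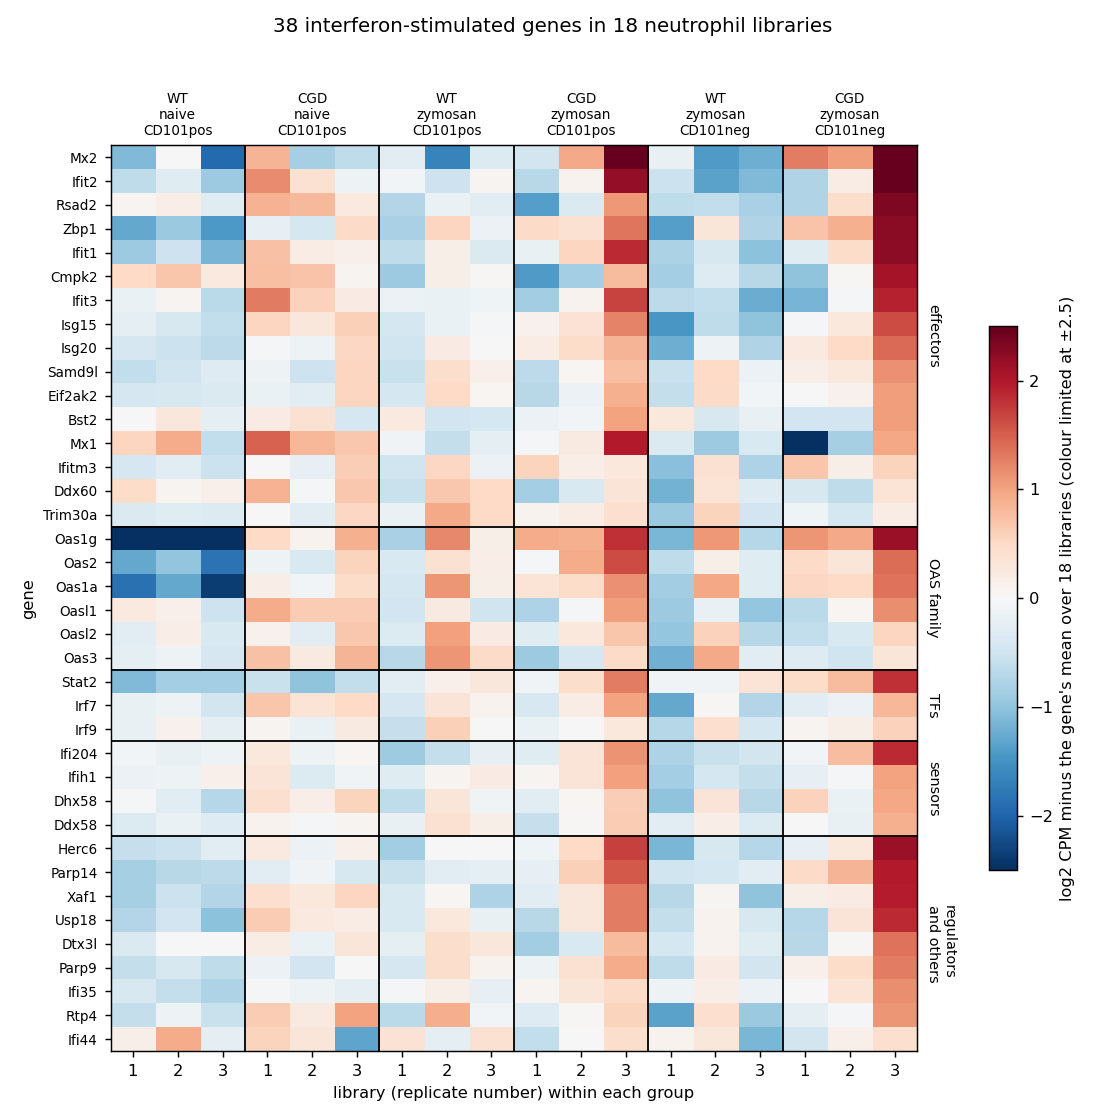
Each row is 1 of the 38 genes, grouped by role, and each column 1 of the 18 libraries; colour gives log2 CPM minus the gene's mean over all libraries. Library 3 of both CGD zymosan groups is above the mean for all 38 genes, and Oas1g, Oas1a and Oas2 are lowest in the WT naive libraries.

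The members stood highest in the CGD libraries numbered 3. CGD zymosan CD101neg library 3 was the highest of its group for 37 of 38 members, where a library of that group was highest for 26.9% to 38.9% of all genes. CGD zymosan CD101pos library 3 was also the highest for 37 of 38, against 36.8% of all genes, and Ifitm3 was the exception in both sorts. Over all genes, the CGD libraries numbered 3 of both sorts deviated from their group means together (r = 0.260). They may share a source of cells and need not count as separate observations. Library 1 was the lowest for 28 members in the CD101neg group and for 35 in the CD101pos group, against 39.5% and 42.1% of all genes. The level in library 3 was 2.42 times that in library 1 in the median member of the CD101neg group, with a range from 0.913 for Ifitm3 to 12.3 for Ifit2. In the CD101pos group the median was 2.49 and the range 0.814 to 7.09, with the same members at the ends. In contrast, library 3 of the WT groups was highest for 3 members in CD101neg and 9 in CD101pos cells, against 31.3% and 27.3% of all genes.

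Taken as the mean of the 38 centred log2 values, the CGD CD101neg libraries scored -0.16, 0.17 and 1.40 and the CGD CD101pos libraries -0.31, 0.19 and 1.09. The WT CD101neg libraries scored -0.74, -0.01 and -0.59 and the WT CD101pos libraries -0.43, 0.22 and -0.01. WT library 2 was the highest of its group for 31 members in CD101neg and for 26 in CD101pos cells, against 34.2% and 30.8% of all genes. Of the 38 members, 15, 20 and 35 lay above all WT libraries in CGD CD101neg libraries 1, 2 and 3, and 4, 16 and 31 in the CD101pos ones. Below all WT libraries lay 5, 1 and 0 members in the CD101neg and 13, 1 and 0 in the CD101pos libraries. These counts for single libraries were not made over all genes, so they have no background share.

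**Figure D2:**
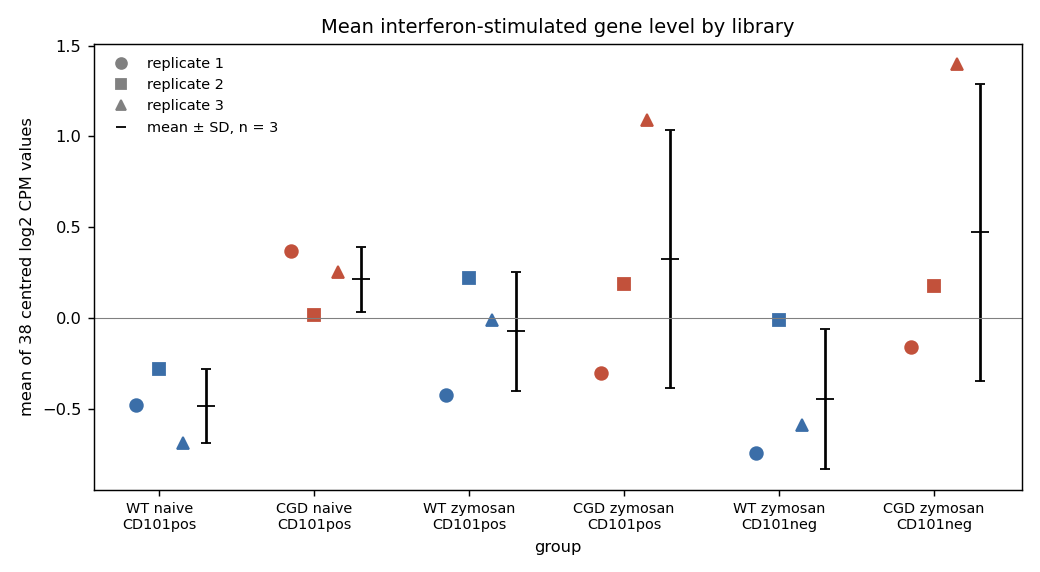
Points give the mean of the 38 centred log2 CPM values in each library (circle, square and triangle for replicates 1, 2 and 3), with the group mean and SD in black. CGD zymosan library 3 scores 1.40 in CD101neg and 1.09 in CD101pos cells, above every other library.

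Without CGD CD101neg library 3 the count of called members was 3 (Isg15, Isg20 and Parp14) and the median 0.38. The count was 5 without WT CD101neg library 1 and 4 without WT CD101neg library 3, with medians of 0.83 and 0.88. For these fits with a single library left out no share of all genes is given, so a lower count need not be particular to the members. With both CGD zymosan libraries numbered 3 left out it was 4, with Ifi204 added, when 4.84% of all genes rose. Their log2 fold changes were then 1.12 ± 0.23 for Isg15, 1.07 ± 0.22 for Parp14, 1.01 ± 0.28 for Isg20 and 1.00 ± 0.26 for Ifi204. Under each of the 13 alternatives run on this comparison, Isg15, Isg20 and Parp14 passed, with adjusted p from 2.58e-05 to 0.0401, from 0.000206 to 0.0497 and from 0.000162 to 0.0476. Ifi204 passed in 12 of them. Mx2, Ifit2 and Rsad2 kept a positive fold change but did not pass without the libraries numbered 3.

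**Figure D3:**
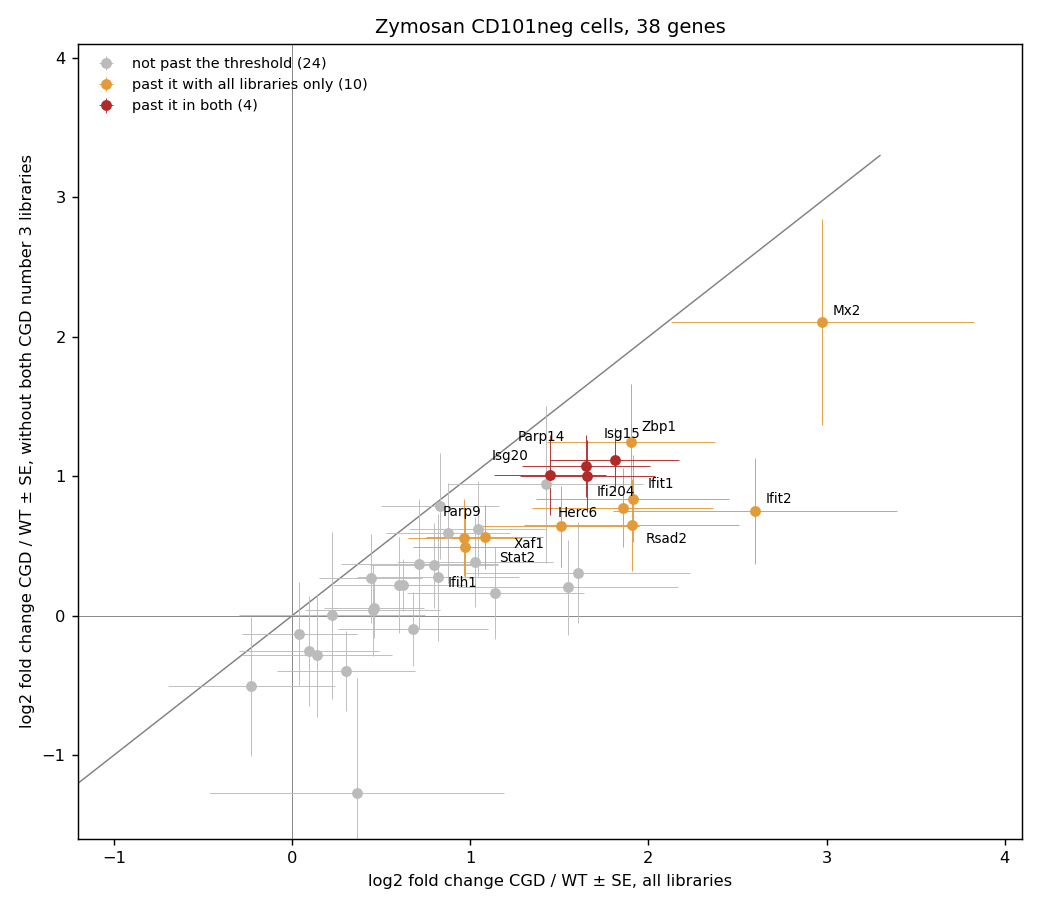
Each point is 1 gene in zymosan CD101neg cells, with its log2 fold change of CGD over WT (± SE) in all libraries on the x axis and without both CGD libraries numbered 3 on the y axis; the line marks equality. All 38 points lie below the line, and 4 of the 14 called genes pass on both axes. CGD CD101neg library 3 was above the mean of libraries 1 and 2 for every gene, so points below the line follow from leaving it out.

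Marker levels of other cells were read in the same libraries. The summed level of 12 neutrophil markers was 53950 CPM in CGD CD101neg library 3, the lowest of its group (up to 124800), and 35890 in CGD CD101pos library 3, again the lowest (up to 77230). It was 85360 and 87950 CPM in WT library 2 of the CD101neg and CD101pos sorts, the highest of those groups, whose lowest were 19980 and 32300. Most of this sum came from S100a8 and S100a9, with means of 32110 and 24120 CPM in CGD CD101neg cells, where Ly6g had 132. The sum therefore need not track neutrophil content. Plasmacytoid dendritic cells are a major source of type I interferon. The sum of their 10 markers was 39.3, 40.2 and 46.2 CPM in the CGD CD101neg libraries and 29.8, 35.5 and 41.5 in the CGD CD101pos libraries, highest in library 3 of both. The WT zymosan groups had 37.8 to 47.0 CPM. In CGD CD101neg cells 1 of the 9 markers tested was called higher and 3 lower, and in CD101pos cells 0 and 1. Siglech, 1 of the 10, had 0 reads in all 3 CGD CD101neg libraries, and 60 reads over the 3 CGD CD101pos ones. The sum over the 10 went the other way, higher in each CGD CD101neg library than in the CGD CD101pos library of its number. A single marker thus does not stand for the list. The sum of 11 alveolar macrophage markers was highest in library 3 of CGD CD101neg (366.8, lowest 288.9) and CD101pos cells (810.3, lowest 533.2), and ran from 202 to 420 and from 193.5 to 549 in WT. Between the genotypes, 6 of these 11 were called lower and 0 higher in CGD CD101neg cells (median -1.47), and 4 were called higher and 0 lower in CGD CD101pos cells (median 1.13). Monocyte and interstitial macrophage markers were lower in CGD CD101neg cells for 10 of 12 and stood lowest in library 3 (717.5 CPM against 972.7 at most), while in CGD CD101pos cells 4 were higher and 1 lower. B cell markers were lower for 6 of 8 in CD101neg and 5 of 8 in CD101pos cells. The part of these cells in the members' levels was not tested.

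In CD101pos cells after zymosan the test called 0 of 38 members. By that test 2.77% of all 16575 genes rose and 419 fell. An unadjusted p under 0.05 was reached by 7 members and DESeq2 called 2, measures for which no share of all genes is given. The median fold change was 0.49 against 0.02 over all genes, with 29 of 38 above 0. It was -0.01 without CGD library 3. Parp14, the member with the lowest p, measured 23.5, 41.1 and 78.4 CPM in CGD and 18.6, 22.6 and 22.8 CPM in WT cells. The groups did not overlap, and the log2 fold change of 1.16 ± 0.36 did not pass (adjusted p = 0.0664). Mx2 (2.63 ± 0.84, adjusted p = 0.0780) and Ifi204 (1.05 ± 0.37, adjusted p = 0.122) followed. Isg15 measured 211, 249.7 and 461 CPM against 143, 174 and 191 CPM, also without overlap (0.86 ± 0.36, adjusted p = 0.197). All CGD libraries were above all WT libraries for 3 members, Isg15, Mx1 and Parp14, and for 12.0% of all genes. Rsad2 was at 58.2, 117 and 318 CPM against 90.0, 134 and 123 CPM, so that CGD libraries 1 and 2 were below or inside the WT range.

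In naive cells, without zymosan, the CGD libraries stood above the WT libraries for most members. All 3 CGD libraries lay above all 3 WT libraries for 24 of 38 members, where 7.46% of all genes did so. The fold change was above 0 for 37 of 38, the median was 0.61 against 0.00 over all genes, and Ifi44 was the exception. In CGD naive libraries 1, 2 and 3, 34, 26 and 32 members were above all WT naive libraries, and 0, 2 and 3 below all of them. The same was not counted over all genes. Leaving out each naive library in turn kept the median between 0.54 and 0.73. The test called 1 member, Oas1g. An unadjusted p under 0.05 was reached by 11, a count without its share over all genes. Few genes passed in this comparison, with 0.121% of all 16575 genes higher and 1 gene lower.

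Oas1g measured 14.5, 10.9 and 19.1 CPM in CGD naive libraries and 1.18, 1.67 and 0.933 CPM in WT naive libraries. The lowest CGD library was several times the highest WT library, and the log2 fold change was 3.54 ± 0.61 (adjusted p = 0.0310). The call was kept without CGD naive library 1 and lost without any other naive library, with adjusted p of 0.228, 0.147 and 0.211 without WT libraries 1, 2 and 3 and 0.0580 and 0.0718 without CGD libraries 2 and 3. Oas1a measured 61.7, 52.9 and 76.4 CPM against 15.1, 22.9 and 10.7 CPM, also without overlap, and did not pass (1.97 ± 0.45, adjusted p = 0.154). Oas2 measured 26.8, 22.6 and 43.5 CPM against 12.1, 14.8 and 8.18 CPM (1.40 ± 0.39, adjusted p = 0.317). The transcripts of Oas1a and Oas1g share sequence. In the GENCODE vM21 annotation 57.6% of the 50-base windows of Oas1a and 45.7% of those of Oas1g also occur in another gene, mainly in each other, so the split of reads between them is uncertain. Across the 300-base start regions the pair is as alike as the sequences above show. Reads of Ifit3 and Ifi204 are uncertain in a like way. Of the 50-base windows of Ifit3, 51.2% also occur in Ifit3b. Of those of Ifi204, 20.0% occur in another gene, with 14.8% in Ifi211.

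Isg15 measured 283, 236 and 296 CPM in CGD naive and 165, 148 and 128 CPM in WT naive cells, without overlap (0.89 ± 0.36, adjusted p = 0.632). Ifit1 measured 169.8, 115 and 111 CPM against 54.3, 71.1 and 45.2 CPM (1.22 ± 0.53, adjusted p = 0.669). Rsad2 measured 275, 265 and 177 CPM against 158, 169 and 122 CPM (0.68 ± 0.58, adjusted p = 0.909). Irf7 measured 331, 259.9 and 288 CPM against 179, 188 and 150 CPM (0.76 ± 0.36, adjusted p = 0.714). Usp18 measured 79.8, 60.7 and 58.5 CPM against 30.8, 36.7 and 25.1 CPM (1.10 ± 0.50, adjusted p = 0.686). Each of these had all CGD libraries above all WT libraries and an adjusted p above the threshold. The groups overlapped for Stat2, at 18.6, 13.7 and 17.9 against 12.8, 15.4 and 15.2 CPM, and for Ifih1, Ifi204, Parp9 and Cmpk2. Beside this, the neutrophil marker sum was 28620 to 77680 CPM in CGD and 34390 to 35560 in WT naive libraries, and 2 of 11 alveolar macrophage markers were called higher. The sum over the latter was 171 to 283 CPM in CGD and 163.5 to 169 in WT, and the part of these cells was not tested.

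**Figure D4:**
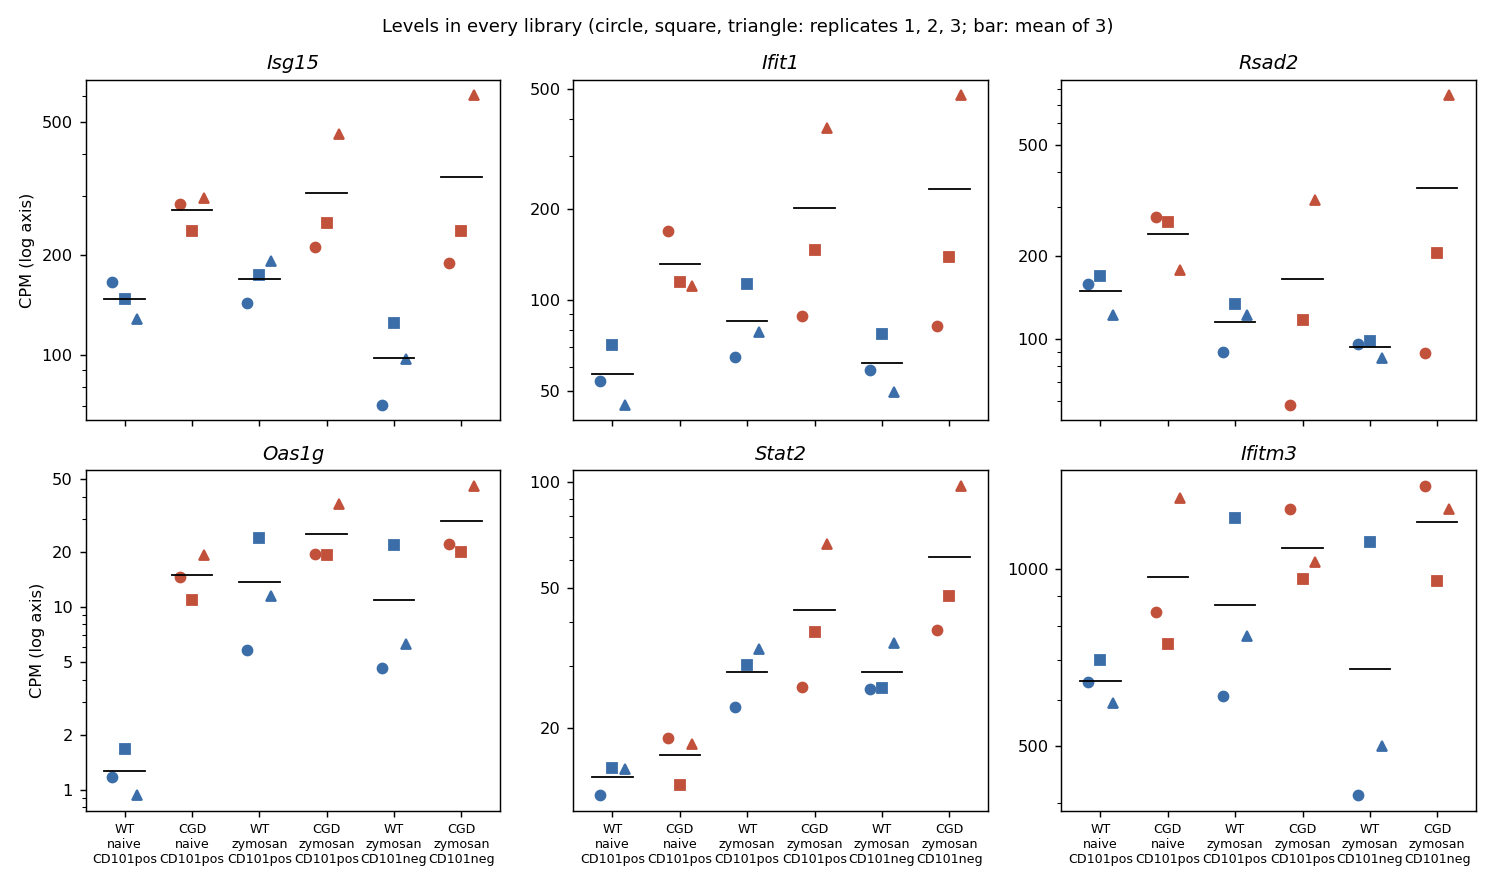
CPM on a log axis of 6 genes in every library (blue WT, red CGD; circle, square and triangle for replicates 1, 2 and 3), with a bar at the group mean. CGD naive libraries lie above WT naive ones for Isg15, Ifit1, Rsad2, Oas1g and Ifitm3, and CGD zymosan library 3 is the highest point for Isg15, Ifit1, Rsad2, Oas1g and Stat2.

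Between the sorts, 15 members were lower in WT CD101neg than in WT CD101pos cells in the fit that paired the libraries by number, and 0 in the fit that did not. The fit without pairing called 0 of 38 in WT zymosan cells (2 with an unadjusted p under 0.05, and 0 by DESeq2), where 0.410% of all genes were called higher and 0.0302% lower in CD101neg cells. The median was -0.34 against 0.02, with 35 of 38 below 0. Same-numbered WT libraries of both sorts deviated together, and the fit with that number as a block called 15 members, each lower in CD101neg, when 5.98% of all genes were lower. Isg15 fell by 0.83 ± 0.14 on the log2 scale (adjusted p = 0.000987), Trim30a, a restriction factor and brake on Toll-like receptor signalling, by 0.71 ± 0.14 (adjusted p = 0.00235), and Oasl2 by 0.67 ± 0.13 (adjusted p = 0.00317). Isg15 measured 70.9, 125 and 97.0 CPM in CD101neg and 143, 174 and 191 CPM in CD101pos libraries, so it was lower in CD101neg cells under every number. Within a number, 26 members were lower in CD101neg cells under all 3 numbers and 1 was higher, where 23.1% of all genes were lower and 22.9% higher. The medians of the 3 WT differences were -0.29, -0.24 and -0.59.

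In CGD zymosan cells the fit without pairing called 0 of 38 members between the sorts (0 with an unadjusted p under 0.05, and 0 by DESeq2), where 3.27% of all genes were higher and 4.08% lower in CD101neg cells. The median was 0.22, with 31 of 38 above 0, but -0.13 when scaled by library size only and -0.27 without CGD CD101neg library 3. The fit with the number as a block called 7 members higher and 2 lower in CD101neg cells, when 11.7% of all genes were higher and 13.1% lower. Rsad2 had the lowest p there (0.87 ± 0.15, adjusted p = 0.000551). Same-numbered CGD libraries 1 and 3 deviated together across the sorts (r = 0.236 and 0.260), but those numbered 2 barely did (r = 0.025). In the fit without pairing the members with the lowest p were Rsad2 (1.09 ± 0.59, adjusted p = 0.285), Cmpk2 (1.11 ± 0.61, adjusted p = 0.294) and Mx1 (-1.31 ± 0.80, adjusted p = 0.352). Within a number 15 members were higher and 4 lower in CD101neg cells under all 3 numbers, against 25.4% and 25.8% of all genes. The interaction, the CGD difference between sorts minus the WT one, was above 0 for 36 of 38 members with a median of 0.53, which was 0.03 without CGD CD101neg library 3 and 0.07 when scaled by library size only. It passed for 0 of 38 members (0 with an unadjusted p under 0.05, and 0 by DESeq2), when 0.181% of all genes were higher and 0.670% lower. Isg20 (0.85 ± 0.44, adjusted p = 0.384), Isg15 (0.95 ± 0.50, adjusted p = 0.399) and Cmpk2 (1.54 ± 0.86, adjusted p = 0.428) had the lowest p. With genotype and number as a block, the interaction was called higher for 10 members, when 5.96% of all genes were higher, in a fit that also blocks the CGD libraries by their number.

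**Figure D5:**
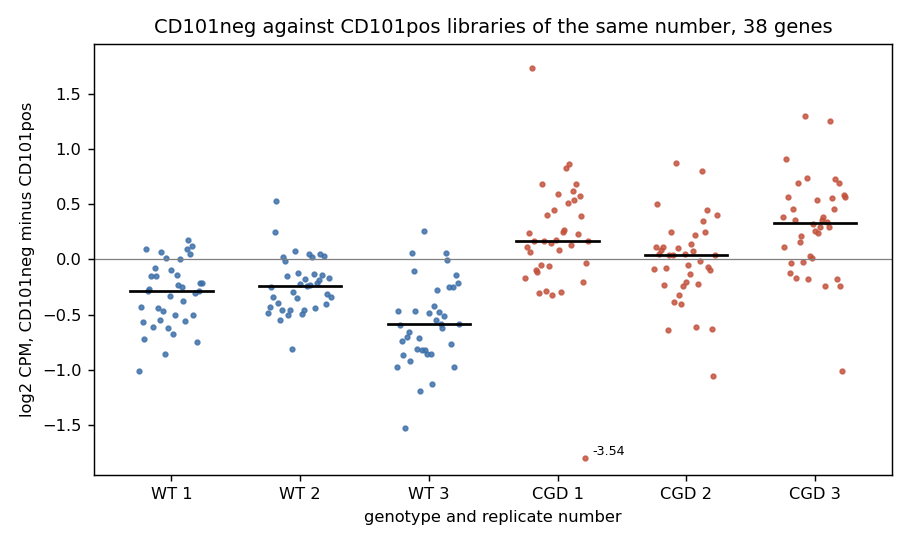
Each point is 1 of the 38 genes, and the y axis gives its log2 CPM in the CD101neg minus that in the CD101pos library of the same genotype and number; bars are medians, and 1 point at -3.54 is drawn at the lower edge. The WT medians are -0.29, -0.24 and -0.59 and the CGD medians 0.17, 0.04 and 0.33.

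Zymosan against naive cells, which is also female against male and 13 against 12 weeks, gave few calls among the members. In WT CD101pos cells 2 rose and 0 fell, where 2.92% of all genes rose and 0.875% fell. Oas1g measured 5.84, 23.8 and 11.4 CPM after zymosan and 1.18, 1.67 and 0.933 CPM in naive cells (3.42 ± 0.61, adjusted p = 0.00315). Oas1a measured 40.8, 119 and 61.5 CPM against 15.1, 22.9 and 10.7 CPM (2.19 ± 0.46, adjusted p = 0.0105). Neither gene's groups overlapped, and WT library 2 was the highest for both. Oas1a did not pass without WT naive library 1 (adjusted p = 0.0537) or 3 (adjusted p = 0.0677). The next member was Oas2 at 1.41 ± 0.39 (adjusted p = 0.0501). In CGD CD101pos cells Stat2 rose and 0 members fell, where 7.13% of all genes rose and 5.71% fell. Stat2 measured 26.1, 37.4 and 66.6 CPM after zymosan and 18.6, 13.7 and 17.9 CPM in naive cells (1.37 ± 0.33, adjusted p = 0.00941). Parp14 (1.07 ± 0.35, adjusted p = 0.0551) and Mx2 (1.94 ± 0.80, adjusted p = 0.124) came next. Without CGD CD101pos library 3 alone Stat2 did not pass (0.92, adjusted p = 0.0787). Without both CGD libraries numbered 3, Stat2 rose (0.92 ± 0.23, adjusted p = 0.0175) when 5.24% of all genes rose. In that fit 3 members and 3.77% of all genes fell, Cmpk2 by 1.65 ± 0.36, Rsad2 by 1.44 ± 0.35 and Oasl1 by 1.11 ± 0.34. The interaction of genotype and zymosan passed for 0 members (3 with an unadjusted p under 0.05, and 1 by DESeq2), where 0.163% of all genes were higher and 0.157% lower. Oas1g (-2.66 ± 0.79, adjusted p = 0.204), Oas1a (-1.69 ± 0.62, adjusted p = 0.324) and Oas3 (-1.52 ± 0.67, adjusted p = 0.413) had the lowest p.

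The ligands were barely read in these cells. Of 21 interferon genes listed, 13 were numbered alpha genes, and 12 of these had 0 reads in all 18 libraries. The other, Ifna2, had at most 5 reads in a library. Ifnb1, which encodes interferon beta, had at most 8 reads in a library, a WT CD101neg one, and 0, 0 and 1 reads in the CGD CD101neg libraries. Ifng, which encodes interferon gamma, had at most 23 reads, in a CGD naive library, and 0 in library 3 of both CGD zymosan groups. The 6 receptor genes were all tested and 0 were called between the genotypes. In CD101neg cells Ifnar1 was at 0.15 ± 0.21 (adjusted p = 0.701) and Ifnar2 at 0.37 ± 0.17 (adjusted p = 0.155). Downstream, Tyk2 rose in CD101neg cells (0.93 ± 0.28, adjusted p = 0.0348), Jak1 fell in CD101pos cells (by 0.65 ± 0.19, adjusted p = 0.0494), and Irf8, a factor of monocyte and dendritic cell development, fell in CD101neg cells by 1.17 ± 0.32 (adjusted p = 0.0224). Irf1, a transcription factor gene that answers to interferon gamma, rose in CD101neg cells (2.18 ± 0.28, adjusted p = 8.9e-05) and in CD101pos cells (1.57 ± 0.28, adjusted p = 0.00296).

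Beyond the members, 145 other genes of the pathway were tested. In CD101neg cells 32 were higher and 4 lower in CGD, in CD101pos cells 19 and 2, and in naive cells 0 and 0. Of all 16575 genes, 1105 were higher and 1034 lower in CD101neg cells, and 459 and 419 in CD101pos cells. In naive cells only 20 and 1 passed, so a count of 0 there need not be particular to these genes. Their medians were 0.64, 0.42 and 0.24. The Gbp and Irg GTPases, which attack vacuoles that hold microbes and answer strongly to interferon gamma, rose for 9 of 15 in CD101neg and 5 of 15 in CD101pos cells. Their medians were 2.46 and 1.21, and -0.04 in naive cells, where 0 of 15 passed. Irgm1 was at 3.07 ± 0.45 in CD101neg and 2.27 ± 0.44 in CD101pos cells, and Ifi47 at 4.17 ± 0.57 and 2.74 ± 0.53. Their mean centred log2 level was 0.40, 0.73 and 2.66 in the CGD CD101neg libraries, again highest in library 3, and between -0.85 and -0.70 in the WT ones. Sp110 (1.89 ± 0.22) and Sp140 (2.34 ± 0.27), nuclear body proteins that read chromatin, and Plac8 (2.09 ± 0.25) were among the other interferon-stimulated genes that rose in CD101neg cells.

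The members did not vary as 1 block. Over the 18 libraries the correlation of a member with the mean of the others had a median of 0.816, from 0.969 for Ifit1, 0.950 for Usp18 and 0.941 for Herc6 down to 0.387 for Mx1 and 0.236 for Ifi44. The RNA helicase gene Ddx60 (0.442), Oas3 (0.537) and Trim30a (0.545) were also loosely tied. Oas3 and Trim30a were higher in WT library 2 than in any CGD zymosan library of the same sort. Oas3 measured 70.0, 310.1 and 132 CPM in WT and 128, 113 and 196 CPM in CGD CD101neg libraries. Trim30a measured 125, 347 and 171 CPM against 218, 174 and 268 CPM. The genes outside the list most like the members' mean were Trafd1 (Pearson r = 0.962), Slfn8 (0.922), Gbp3 (0.899), Oas1b (0.888), Gbp7 (0.883), Gvin1 (0.870), Irgm2 (0.868), Parp10 (0.857), Tap1 (0.847) and Daxx (0.843). These correlations over 18 libraries in 6 groups are a description, since the libraries share genotype, treatment and, for the zymosan sorts, possibly the source of the cells.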

How the data were processed

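The authors deposited whole-number read counts for each gene. Per the submitters' processing notes they used featureCounts 1.4.6-p5 of Subread after STAR 2.5.1a, and per the labels' protocols SMARTer libraries of total RNA. The sources used here give no genome build, annotation or strand setting, and reads of overlapping opposite-strand genes (Parp9 and Dtx3l, for example) cannot be told apart. Of 40757 lines 276 repeats were dropped.

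All 18 libraries were fitted with edgeR 4.0.16 (R 4.3.3, filterByExpr by group, TMM, robust quasi-likelihood, 12 residual degrees of freedom, common biological coefficient of variation 33.0%) in 9 comparisons. The code was run on simulated counts drawn independently for each library. That run does not cover libraries in which many genes shift together. Centred log2 CPM used a prior count of 2. Alternatives were DESeq2 1.42.0, other scalings, no filter, blocks and libraries left out. Counts by unadjusted p or by DESeq2 are given without a share of all genes. Same-numbered WT libraries of both sorts correlated at 0.487, 0.425 and 0.312 in their deviations from group means. The CGD ones correlated at 0.236, 0.025 and 0.260. Each library of either genotype correlated best with its own number, though barely so for CGD number 2. No source used here states what the numbers mark. Any member could be named, with the lowest p in each comparison and role given in full. The members and lists were chosen with earlier results of these data known. 1 gene of the wider pathway is not reported here.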

Additional observations from a re-analysis of the deposited data

How the results depend on the processing

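The 14 members called between the genotypes in zymosan CD101neg cells were 14 with RLE size factors, 16 with DESeq2 and 12 with a replicate block. They were 5 with library size only, 5 with no low-count filter, 5 with only the groups compared in the fit and 4 without both CGD zymosan libraries numbered 3, and 3 to 18 with each library left out. Library size only moved the median of all genes to -0.57. In zymosan CD101pos cells the count of 0 became 2 with DESeq2 and 0 to 2 with a library left out. In naive cells the count of 1 became 0 with no low-count filter, 2 with DESeq2, 2 with only the groups compared, and 0 to 1 with a library left out. Zymosan against naive, the count of 2 in WT became 1 with no low-count filter, 4 with a replicate block, 4 with DESeq2, 4 with only the groups compared, and 1 to 3 with a library left out. The count of 1 in CGD became 2 with a replicate block, 2 with DESeq2, 4 without both libraries numbered 3, and 0 to 3 with a library left out. Between the sorts, the block by genotype and number in the 12 zymosan libraries turned 0 into 15 in WT, 9 in CGD (7 higher, 2 lower) and 10 in the interaction. In those fits 5.98% of all genes were lower in WT, 11.7% higher and 13.1% lower in CGD, and 5.96% higher in the interaction. Leaving out a library gave 0 to 1 in WT, 0 in CGD and 0 in the interaction. In CGD each library correlated best with its own number, a hint from the data and not from the design. The interaction of genotype and zymosan had 1 call with DESeq2. Apart from the block between the sorts, these counts stand here without the shares of all genes in the same fits. The cause of these changes was not tested. Of the values of single called members under the alternatives, 145 kept their call, 86 lost it and 0 changed sign. Mx1 and Ifi44, with group means under 1 CPM, and Mx2, with group means under 1 CPM outside the CGD zymosan groups, are limited by depth.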
